A study of Mus musculus with 12 samples.

Results

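Housing was compared among mice given ethanol as newborns: 3 hippocampal RNA libraries of mice kept in enriched cages were set against 3 of mice kept in standard cages, 6 of the 12 libraries of the series. The libraries were taken by their column names, and all genes with a mean of at least 1 TPM (transcript abundance scaled to the library total) over the 12 libraries were tested, 14947 of the 36119 in the deposited table. The means of the genes just inside and just outside that limit were 1.0003 and 0.99985. The enriched ethanol and standard ethanol mice were C57BL/6 and 70 days old. As pups both were injected under the skin with ethanol at 2.5 g/kg, dissolved in saline of 0.15 M, on postnatal day 6 and again on day 7. Each day had 2 such injections, spaced by 2 hours. They were divided at random between the housings on day 21. An enriched cage was a large colony cage with 2 to 6 littermates of the same sex, running wheels, ladders, toys, hidden food and extra bedding and nest material. Enriched saline and standard saline mice, 3 libraries of each, had injections of the saline alone and the same housings, and they entered the fit and served for comparison. The labels call the exposure prenatal, although every injection came after birth. They give neither the sex of each mouse nor its litter or cage, and p-values here reflect only how these libraries vary.

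Running and varied surroundings are known in rodents to raise the birth and survival of dentate granule neurons, growth factors such as Bdnf and Vegfa, and synapse number. Neonatal ethanol in rodents is known to kill developing neurons in the hippocampus and other forebrain regions and is used as a model of human exposure in late pregnancy. Heat shock chaperones, which refold proteins, and adhesion and cytokine genes are known to be switched on within hours by heat, handling, injury or infection.

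All 12 markers of forebrain and hippocampal neurons were well detected, with a lowest value of 17.4 TPM in any library. Library sums lay between 973187 and 1024536, Spearman correlations between libraries over the genes tested between 0.976 and 0.989, and 0 pairs of libraries held identical values. Read depth is unknown, since TPM keeps no counts. Markers of neighbouring tissue varied between the ethanol libraries. The summed TPM of 15 choroid plexus genes was 187.5, 204.8 and 229.5 in enriched ethanol mice, against 724.0, 221.4 and 208.9 in standard ethanol mice. The summed TPM of 10 blood genes was 2398, 5074 and 1058 in enriched ethanol mice, against 9054, 1373 and 2751 in standard ethanol mice. Standard ethanol replicate 1 thus held the most of both tissues among the ethanol mice. Enriched saline replicate 2 held far more choroid plexus, with a summed TPM of 9323, against 187.1 to 365 in the other saline libraries. The blood list had a median log2 fold change of -0.307 in ethanol mice, which was 0.318 without standard ethanol replicate 1 and 0.179 without enriched ethanol replicate 3.

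Very little separated the housings in ethanol mice beyond the spread between libraries. limma, on log2(TPM + 0.5) with Benjamini-Hochberg adjustment over all genes and an adjusted p under 0.05, called 1 of 14947 genes, or 0.00669%. The call is a lower level in enriched ethanol mice of ENSMUSG00000118641, an identifier with no name in the annotation used. It was listed at 0, 0 and 0 TPM in enriched ethanol mice, against 10.4, 5.69 and 4.41 TPM in standard ethanol mice, and at 0 in all 6 saline libraries (limma adjusted p = 0.00222). It thus met the limit of a mean of at least 1 TPM only through the group where it is high. A value of 0 in this kind of table can be a failed estimate, so no fold is given here, and with a pseudocount of 0.1 the gene did not pass (limma adjusted p = 0.286). limma called 0 genes higher in enriched ethanol mice. Without adjustment 833 genes (5.57%) had p under 0.05, of which 435 (2.91%) were higher and 398 (2.66%) lower, and the smallest adjusted p after the called gene was 0.595. The same fit called 4 genes (0.0268%) for enriched against standard cages in saline mice, 2 higher and 2 lower (0.0134% each). There 1498 genes (10%) had an unadjusted p under 0.05, 5.43% higher and 4.6% lower.

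The precision of the comparison was good for most genes. The median standard error of a log2 fold change was 0.128, and the median absolute log2 fold change was 0.094. The 95% interval of the fold change lay within 2-fold in either direction for 13505 genes (90.4%) and within 1.5-fold for 72.0%. Log2 fold changes ran from -0.362 at the 5th percentile to 0.293 at the 95th, around a median of -0.0054. Of 206 genes with an absolute log2 fold change above 1, 144 were listed at 0 in at least 1 of the 6 ethanol libraries, and 62 of the 206 were protein-coding. All 3 enriched ethanol libraries lay above all 3 standard ethanol libraries for 908 genes (6.07%) and below them for 893 (5.97%).

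**Figure D1:**
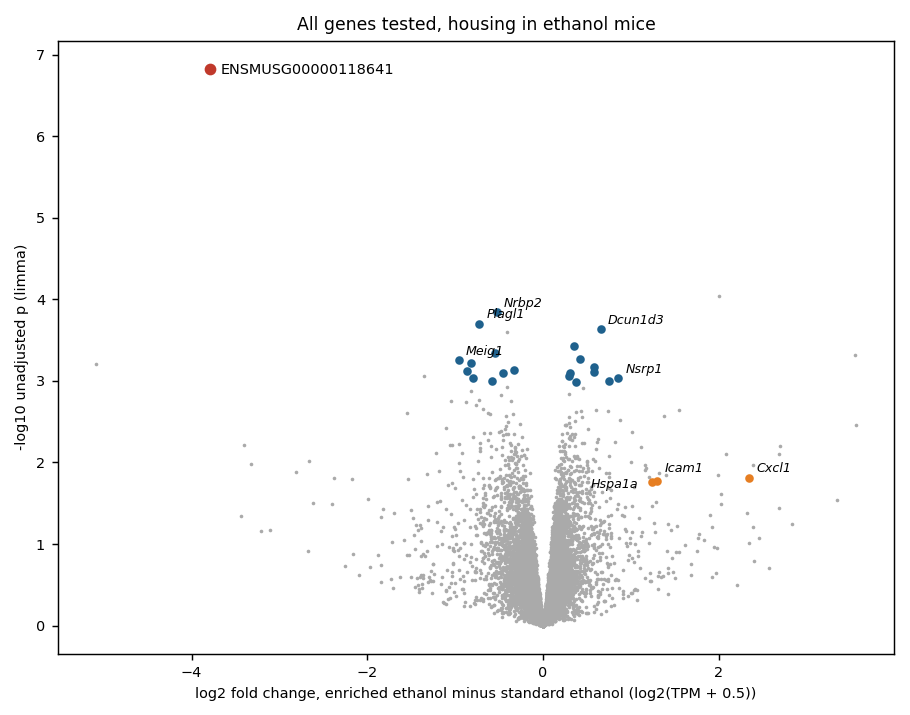
Log2 fold change of enriched ethanol minus standard ethanol (x axis, on log2(TPM + 0.5)) against -log10 of the unadjusted limma p (y axis), 1 point per gene for 14947 genes. The called gene (red) stands alone, the 20 named genes with the smallest p (blue) pass no adjustment, and Hspa1a, Icam1 and Cxcl1 (orange) have large fold changes with modest p.

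Cytosolic heat shock chaperones had log2 fold changes almost all above 0, and the enriched ethanol libraries differed among themselves, with mean levels of 0.44, 0.42 and -0.06 on the log2 scale relative to the 12-library mean. Of the 24 chaperone genes, all tested, 23 had a log2 fold change above 0 in ethanol mice, with a median of 0.236, against 48.1% of all genes and a median of -0.0054. None passed adjustment in either direction, while 13 were higher and 0 lower at an unadjusted p under 0.05, against 2.91% and 2.66% of all genes. In saline mice 14 of the 24 lay above 0, with a median of 0.051. These proteins refold damaged proteins with ATP (the Hsp70 and Hsp90 families), hold unfolded ones (the small heat shock proteins) or assist as co-chaperones.

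Fkbp4 (chromosome 6, 128429735 to 128438677, minus strand, GRCm38), a co-chaperone of Hsp90 on steroid receptors, had the smallest p of them. It stood at 140, 134 and 118 TPM in enriched ethanol mice, against 104, 97.7 and 105 TPM in standard ethanol mice. Every enriched ethanol library was also above every saline library, which lay between 101.3 and 117.7 TPM. The log2 fold change was 0.35 with an SE of 0.07 (limma adjusted p = 0.595), so the gene did not pass. Dnaja4, an Hsp40 co-chaperone, was at 43.5, 35.9 and 34.2 TPM in enriched ethanol mice, against 29.1, 27.0 and 30.9 TPM in standard ethanol mice. Hsp90ab1, the constitutive cytosolic Hsp90, had a log2 fold change of 0.24 and Hspa8, the constitutive Hsp70, one of 0.22 (SE 0.07 each). Hspa2, an Hsp70 best known from the testis, was the exception, at 65.9, 60.9 and 59.3 TPM in enriched ethanol mice, against 62.1, 62.4 and 61.8 TPM in standard ethanol mice.

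The stress-inducible chaperones differed among the enriched ethanol mice themselves. Hspa1a (chromosome 17, 34969190 to 34972156, minus strand), an Hsp70 that is nearly silent until stress, was at 39.9, 40.0 and 7.95 TPM in enriched ethanol mice, against 10.7, 9.17 and 9.14 TPM in standard ethanol mice. Replicates 1 and 2 were high, and replicate 3 was below all 3 standard ethanol libraries, so the groups overlapped. Hspb1, a small heat shock protein, was also high in replicates 1 and 2, at 25.8, 24.6 and 6.67 TPM in enriched ethanol mice, against 7.32, 4.65 and 7.08 TPM in standard ethanol mice. Dnajb1, the inducible Hsp40, was at 47.3, 52.8 and 25.6 TPM in enriched ethanol mice, against 25.2, 30.7 and 31.9 TPM in standard ethanol mice. Hspa1b is a near-identical copy of Hspa1a, and kallisto divides reads between such copies by estimate, so the values of both genes are uncertain. Hspa1b was at 48.9, 50.2 and 11.3 TPM in enriched ethanol mice, against 12.9, 12.9 and 12.8 TPM in standard ethanol mice. The log2 fold changes of Hspa1a, Hspb1 and Dnajb1 were 1.24 (SE 0.45), 1.32 (SE 0.45) and 0.45 (SE 0.22), and none passed (limma adjusted p = 0.861, 0.861 and 0.887).

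The promoters of a regular and of an inducible chaperone are printed because the heat shock element is the known binding site of the heat shock factor. The sequences are RefSeq's on GRCm38.p6, from 250 bases before to 50 bases after the gene's start and in the gene's direction, and capitals mark GAANNTTC, a core of that element. The windows are chr17:34972107-34972406 for Hspa1a and chr6:128438607-128438906 for Fkbp4, both on the minus strand.
Hspa1a: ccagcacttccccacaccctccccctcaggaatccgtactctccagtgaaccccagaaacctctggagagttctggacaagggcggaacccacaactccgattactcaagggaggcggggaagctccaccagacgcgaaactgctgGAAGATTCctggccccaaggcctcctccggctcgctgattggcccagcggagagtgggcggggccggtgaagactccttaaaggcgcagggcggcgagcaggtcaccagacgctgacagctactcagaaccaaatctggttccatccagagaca
Fkbp4: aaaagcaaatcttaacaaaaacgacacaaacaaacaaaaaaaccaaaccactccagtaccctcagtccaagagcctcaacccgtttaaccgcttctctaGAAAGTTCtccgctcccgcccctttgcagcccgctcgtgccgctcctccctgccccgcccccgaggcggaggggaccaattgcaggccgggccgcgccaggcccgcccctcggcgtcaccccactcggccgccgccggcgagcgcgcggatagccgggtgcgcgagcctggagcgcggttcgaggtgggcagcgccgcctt
The match begins at position -104 in Hspa1a and at position -151 in Fkbp4, counted from the start. Searched on both strands, GAANNTTC was present in 7.86% of all 32851 promoter windows and in 13 of the 29 windows (44.8%) of the 20 chaperone genes that have one, or in 12 of those 20 genes. A match is a description of the letters and not a measured binding site.

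Inflammatory genes had a similar pattern between libraries. Of the 21 listed, 11 passed the limit on low values, and the cytokines Il1b, Il1a, Tnf and Il6 were among the 10 that did not. The 11 had a median log2 fold change of 0.273 in ethanol mice and 0.060 in saline mice, 10 of them lay above 0 in ethanol mice, and 0 passed adjustment. At an unadjusted limma p under 0.05, 4 were higher and 0 lower in ethanol mice, against 2.91% and 2.66% of all genes. Icam1 (chromosome 9, 21015985 to 21028817, plus strand), the adhesion molecule by which leukocytes hold to vessel walls, was at 15.5, 13.6 and 2.64 TPM in enriched ethanol mice, against 3.004, 3.26 and 3.11 TPM in standard ethanol mice. Cxcl1 (chromosome 5, 90891241 to 90893115, plus strand), a chemokine that draws neutrophils, was at 12.5, 7.93 and 0.173 TPM in enriched ethanol mice, against 0.334, 0.425 and 0.228 TPM in standard ethanol mice. In both genes replicates 1 and 2 were the highest of the 12 libraries, and replicate 3 lay below every standard ethanol library. Among the ethanol libraries Cxcl1 reached 1 TPM only in enriched ethanol replicates 1 and 2. Within these mice it thus met the limit on low values only through the group where it is high. The other ethanol libraries lay below the added 0.5, on which the size of its fold change depends. Vcam1, a second adhesion molecule, was at 42.3, 39.9 and 20.8 TPM in enriched ethanol mice, against 20.1, 22.3 and 23.5 TPM in standard ethanol mice. The log2 fold changes were 1.30 (SE 0.47) for Icam1, 2.35 (SE 0.83) for Cxcl1 and 0.57 (SE 0.22) for Vcam1, and none passed (limma adjusted p = 0.861, 0.861 and 0.883).

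Tnfaip3, which restrains NF-kB signalling, did not overlap between the groups, at 5.10, 4.48 and 4.31 TPM in enriched ethanol mice, against 3.32, 2.97 and 3.08 TPM in standard ethanol mice. Lcn2, an iron-trapping protein of acute inflammation, was at 20.6, 14.1 and 0.728 TPM in enriched ethanol mice, against 0.559, 2.74 and 1.96 TPM in standard ethanol mice. S100a9, a calcium-binding protein of neutrophils, was at 16.9, 20.7 and 4.13 TPM in enriched ethanol mice, against 7.10, 5.47 and 14.97 TPM in standard ethanol mice. Its partner S100a8 was at 18.9, 16.0 and 10.8 TPM in enriched ethanol mice, against 3.63, 6.41 and 8.45 TPM in standard ethanol mice. Hbb-bs is a haemoglobin gene of the blood list. It was at 1124, 2498 and 528 TPM in enriched ethanol mice, against 4494, 686 and 1370.0 TPM in standard ethanol mice. Replicate 3 was thus its lowest enriched ethanol library too, while its highest ethanol library was standard ethanol replicate 1. The part of blood in these values was not tested.

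The promoters of Icam1 and Cxcl1 are printed because NF-kB is the known inducer of both genes. Capitals mark GGAAATTCC or its reverse complement, in windows chr9:21015690-21015989 for Icam1 and chr5:90890995-90891294 for Cxcl1, both on the plus strand of GRCm38.p6 (RefSeq).
Icam1: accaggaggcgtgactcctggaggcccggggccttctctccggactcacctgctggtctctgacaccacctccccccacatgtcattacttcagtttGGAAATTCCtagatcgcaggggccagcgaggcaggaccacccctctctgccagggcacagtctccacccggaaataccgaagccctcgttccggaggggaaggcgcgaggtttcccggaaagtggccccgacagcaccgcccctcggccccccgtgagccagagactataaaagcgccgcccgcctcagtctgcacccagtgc
Cxcl1: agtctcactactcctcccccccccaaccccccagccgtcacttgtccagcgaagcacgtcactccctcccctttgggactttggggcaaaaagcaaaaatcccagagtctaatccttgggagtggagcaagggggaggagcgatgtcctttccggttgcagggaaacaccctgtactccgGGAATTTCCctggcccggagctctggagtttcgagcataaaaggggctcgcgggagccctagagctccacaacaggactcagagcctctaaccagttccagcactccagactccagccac
The match begins at position -153 in Icam1 and at position -70 in Cxcl1. Searched on both strands, this motif was present in 0.317% of the 32851 windows. It was in 5 of the 11 windows (45.5%) of the 9 tested inflammatory genes that have one, or in 5 of those 9 genes (Cxcl1, Cxcl10, Icam1, Nfkbia and Tnfaip3). It is 1 exact spelling of a variable site, and windows without it say nothing of the factor.

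Genes that glucocorticoids induce were highest in the same enriched ethanol libraries in several cases. The 20 listed genes, all tested, had a median log2 fold change of 0.117 in ethanol mice, with 15 above 0, and of -0.148 in saline mice, with 5 above 0. None passed adjustment in ethanol mice (limma, 2 higher and 0 lower at an unadjusted p under 0.05, against 2.91% and 2.66% of all genes). Sgk1, a kinase of salt and stress responses, was at 144, 150 and 51.4 TPM in enriched ethanol mice, against 54.0, 71.9 and 69.1 TPM in standard ethanol mice. Ddit4, an inhibitor of mTOR signalling, was at 62.7, 63.9 and 43.2 TPM in enriched ethanol mice, against 36.3, 46.1 and 43.0 TPM in standard ethanol mice. Errfi1, an inhibitor of the EGF receptor, was at 35.6, 39.6 and 26.5 TPM in enriched ethanol mice, against 26.1, 28.2 and 27.1 TPM in standard ethanol mice. Sgk1 had a log2 fold change of 0.68 (SE 0.32), Ddit4 of 0.42 (SE 0.15) and Errfi1 of 0.30 (SE 0.12). Enriched ethanol replicate 3 lay below all 3 standard ethanol libraries for Sgk1 and within their range for Ddit4 and Errfi1, so the groups overlapped in each. The list median was 0.291 without that replicate and -0.121 with 7 of 20 above 0 without replicates 1 and 2.

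Genes of the endoplasmic reticulum stress response had log2 fold changes mostly above 0. Of 22 tested, 20 lay above 0 in ethanol mice, with a median of 0.143, against 15 above 0 with a median of 0.076 in saline mice. None passed (limma, 4 higher and 0 lower at an unadjusted p under 0.05 in ethanol mice, against 2.91% and 2.66% of all genes). Calr, a calcium-binding chaperone, was at 449, 440 and 409 TPM in enriched ethanol mice, against 300, 357 and 390 TPM in standard ethanol mice, with a log2 fold change of 0.32 there and of 0.35 in saline mice. Hspa5, the main chaperone of that compartment, was at 301, 329 and 224 TPM in enriched ethanol mice, against 193, 208 and 219 TPM in standard ethanol mice. Pdia6, which forms disulphide bonds, was at 110, 102 and 94.1 TPM in enriched ethanol mice, against 77.9, 86.0 and 86.5 TPM in standard ethanol mice. The enriched ethanol libraries lay above the standard ethanol ones in all 3 genes. Among the 22 tested they did so in 5 and lay below in 0, against 6.07% and 5.97% of all genes. Without enriched ethanol replicates 1 and 2 the list median was 0.0152, with 12 of 22 above 0.

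**Figure D2:**
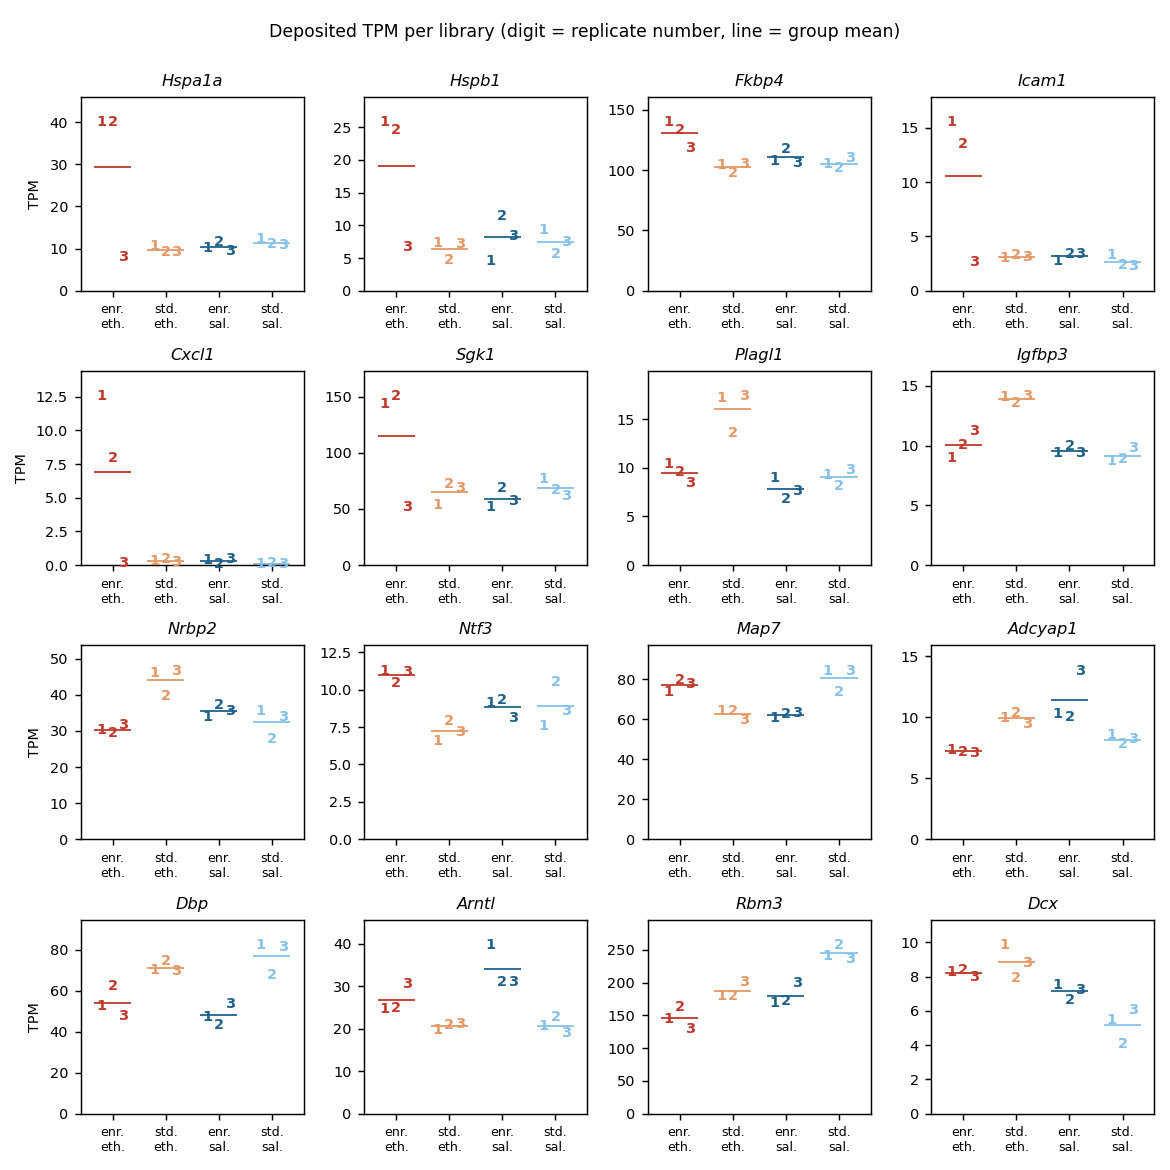
TPM (y axis, from 0) of 16 genes in each library of the 4 groups, where the digit is the replicate number and the line the group mean. In Hspa1a, Hspb1, Icam1, Cxcl1 and Sgk1 the enriched ethanol replicates 1 and 2 stand far above replicate 3, which lies among the other groups, while Plagl1, Igfbp3 and Nrbp2 are higher in all 3 standard ethanol libraries than elsewhere.

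The number of genes called changed most when 1 library was left out. Without enriched ethanol replicate 3, limma called 21 of 14947 genes, 12 higher and 9 lower. That fit no longer holds the library that differed, which lowers the spread of such genes (the SE of Hspa1a was 0.118). The higher ones included Hspa1a (log2 fold change 1.99), Hspa1b (1.91), Icam1 (2.05), Cxcl1 (3.67), Vcam1 (0.89) and Sgk1 (1.18), together with Ch25h, an enzyme that makes 25-hydroxycholesterol (3.10), P4ha1, a subunit of collagen prolyl hydroxylase (0.68), and Olfr1033, an odorant receptor gene (1.84). The lower ones included Fabp7, the fatty acid-binding protein of neural progenitors and astrocytes (-0.97), Cdc42bpa, a kinase of the actin skeleton (-0.66), Grp, the neuropeptide gastrin-releasing peptide (-0.87), Ednrb (-0.42), the transcription cofactor Vgll3 (-2.06) and the cytokine gene Il4 (-0.58). With all 6 libraries Fabp7 was at 59.5, 55.4 and 119 TPM in enriched ethanol mice, against 110, 102 and 126 TPM in standard ethanol mice, and Ch25h at 9.92, 9.94 and 0.547 TPM in enriched ethanol mice, against 1.003, 0.548 and 0.644 TPM in standard ethanol mice. Like Cxcl1, Ch25h stood near or below 1 TPM in every ethanol library but enriched ethanol replicates 1 and 2. The sizes of these 2 fold changes depend on the added 0.5. With enriched ethanol replicates 1 and 2 both left out, a step chosen after these values were seen, 0 genes were called by limma (448 at an unadjusted p under 0.05), and the lone enriched ethanol library is then assumed to vary like the other groups. Hspa1a then had a log2 fold change of -0.26, Icam1 of -0.21 and Sgk1 of -0.33, and the chaperone list a median of 0.0477 with 15 of 24 above 0. The inflammatory list then had a median of -0.21 with 2 of 11 above 0. The labels give nothing about these mice that sets replicate 3 apart from replicates 1 and 2.

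The 10 named genes with the smallest p on the lower side are Nrbp2, Plagl1, Tcerg1l, Meig1, Prcp, Ednrb, AW551984, Igfbp3, Gdpd2 and Ssh3. None passed (limma adjusted p = 0.595 for all 10), and their log2 fold changes ran from -0.963 to -0.334. Plagl1 (chromosome 10, 13060504 to 13131694, plus strand), an imprinted zinc finger transcription factor that restrains growth, was at 10.4, 9.56 and 8.42 TPM in enriched ethanol mice, against 17.2, 13.6 and 17.3 TPM in standard ethanol mice. The 6 saline libraries lay between 6.77 and 9.81 TPM, near the enriched ethanol mice. Igfbp3, a carrier of insulin-like growth factors, was at 8.95, 10.04 and 11.3 TPM in enriched ethanol mice, against 14.1, 13.6 and 14.1 TPM in standard ethanol mice, with the saline libraries between 8.73 and 9.95 TPM. Nrbp2 (chromosome 15, 76085518 to 76091627, minus strand), a pseudokinase, had the smallest p of the 20 named genes, at 30.2, 29.5 and 31.5 TPM in enriched ethanol mice, against 46.1, 39.7 and 46.7 TPM in standard ethanol mice. Ednrb, the endothelin B receptor of astrocytes and vessels, was at 32.9, 34.8 and 40.2 TPM in enriched ethanol mice, against 45.1, 46.0 and 44.8 TPM in standard ethanol mice. In these 4 genes, and in Meig1, AW551984 and Gdpd2, the 3 standard ethanol libraries were the highest of the 12, a position that 116 of the 14947 genes hold. Prcp, a lysosomal carboxypeptidase, was at 7.19, 7.04 and 7.07 TPM in enriched ethanol mice, against 12.7, 11.1 and 15.4 TPM in standard ethanol mice. Ssh3, a phosphatase of the actin regulator cofilin, was at 6.54, 6.98 and 8.16 TPM in enriched ethanol mice, against 12.8, 9.46 and 11.04 TPM in standard ethanol mice, and its enriched ethanol libraries were the lowest of the 12, as for 72 of all genes. The choice by p favours both positions, since the ethanol groups did not overlap in any of these 10 genes. Their share among the 10 is therefore no separate evidence.

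On the higher side the 10 named genes are Dcun1d3, Fkbp4, Pakap, Ntf3, Dis3, Adcy1, Map7, Nsrp1, Ubap2 and Dgki, with log2 fold changes of 0.294 to 0.857 (limma adjusted p from 0.595 to 0.598). Dcun1d3 (chromosome 7, 119852796 to 119896298, minus strand), which helps to attach Nedd8 to cullin ubiquitin ligases, was at 21.8, 20.9 and 19.4 TPM in enriched ethanol mice, against 10.8, 13.8 and 14.6 TPM in standard ethanol mice. The saline libraries lay between 11.2 and 13.98 TPM, so the enriched ethanol mice were the highest of the 12, as they were for Fkbp4 and Dis3 and for 69 of all genes. Dis3, the ribonuclease of the RNA exosome, was at 16.8, 12.4 and 13.7 TPM in enriched ethanol mice, against 9.80, 8.70 and 9.47 TPM in standard ethanol mice. Ntf3, the growth factor neurotrophin-3, was at 11.3, 10.46 and 11.2 TPM in enriched ethanol mice, against 6.59, 7.89 and 7.15 TPM in standard ethanol mice. Adcy1, the adenylyl cyclase that calcium activates at synapses, was at 337, 298 and 285 TPM in enriched ethanol mice, against 256, 257 and 230 TPM in standard ethanol mice, where all 3 libraries were the lowest of the 12. Dgki, a diacylglycerol kinase, and Pakap shared that position, which 98 of all genes hold. Here too the choice by p favours such positions, since the ethanol groups did not overlap in any of the 10 genes. Pakap shares exons on the same strand with Palm2 and Akap2, and its value is uncertain, since reads of the 3 genes cannot be told apart there. Exons of Dis3 overlap those of Pibf1 on the opposite strand, those of Icam1 and Hspa1a overlap predicted antisense genes, and whether strand was used in quantification is not stated.

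Map7, which binds microtubules and recruits kinesin-1, differed in the opposite direction in saline mice. It was at 73.7, 79.3 and 77.6 TPM in enriched ethanol mice, against 64.3, 64.2 and 59.4 TPM in standard ethanol mice. In saline mice it was at 60.5, 62.7 and 63.2 TPM in enriched cages, against 84.3, 73.5 and 84.1 TPM in standard cages. The log2 fold changes were 0.29 (SE 0.07) and -0.37, and the interaction had a limma adjusted p of 0.070 and did not pass. It was called with array weights and without standard saline replicate 2. Of the 10 genes on the higher side 4 had a log2 fold change of the same sign in saline mice, and of the 10 on the lower side 3. Over all 14947 genes the log2 fold changes of the ethanol and saline mice, which share no library, had a Pearson r of 0.056 across genes, which are not independent replicates.

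**Figure D3:**
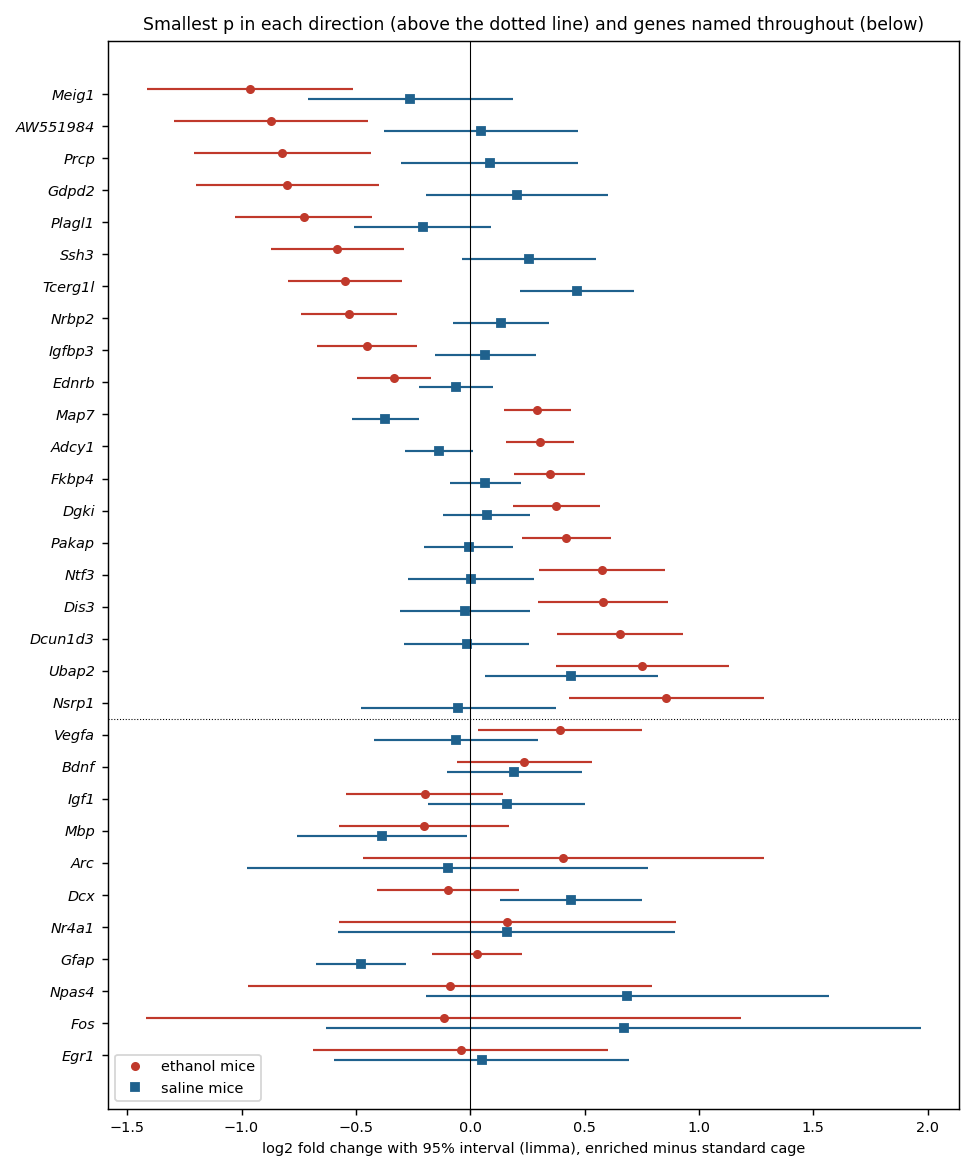
Log2 fold change of enriched minus standard cages with its 95% limma interval (x axis) in ethanol mice (red circles) and saline mice (blue squares), for the 20 named genes of smallest p and, under the dotted line, 11 genes named throughout. The intervals of the 20 genes exclude 0 in ethanol mice, as their choice by p requires, and most of them cross 0 in saline mice, while Fos, Npas4, Arc, Egr1 and Nr4a1 have wide intervals around 0.

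Clock genes had small differences that in several cases ran the same way in saline mice. These genes form a feedback loop of about a day in which Arntl and Clock switch on Per, Cry and Nr1d1 and the output factor Dbp. The 21 genes had a median log2 fold change of -0.014 in ethanol mice and -0.234 in saline mice, and 0 passed in either. At an unadjusted limma p under 0.05, 3 were higher and 2 lower in ethanol mice, against 2.91% and 2.66% of all genes. In saline mice 2 were higher and 10 lower, against 5.43% and 4.6% of all genes. Dbp was at 52.5, 62.2 and 47.9 TPM in enriched ethanol mice, against 70.0, 74.5 and 69.7 TPM in standard ethanol mice, a log2 fold change of -0.40 (SE 0.11), and of -0.68 in saline mice. Arntl, whose rhythm is opposite in phase to that of Dbp, was at 24.7, 24.9 and 30.6 TPM in enriched ethanol mice, against 19.6, 20.9 and 21.1 TPM in standard ethanol mice, a log2 fold change of 0.36 (SE 0.12), and of 0.69 in saline mice. Nr1d1, a repressor of Arntl, was at 31.5, 29.7 and 31.2 TPM in enriched ethanol mice, against 41.7, 38.5 and 34.9 TPM in standard ethanol mice. Per1 and Per2 set enriched ethanol replicate 3 apart once more, with Per1 at 32.0, 35.7 and 17.8 TPM in enriched ethanol mice, against 26.8, 30.1 and 26.4 TPM in standard ethanol mice, and Per2 at 8.82, 10.6 and 5.64 TPM, against 10.52, 9.58 and 11.2 TPM. The hour of killing of each mouse is not given in the labels, and its part in these values was not tested. CACGTG, the E-box that Arntl and Clock bind, was present in 7.15% of all promoter windows. It was in 6 of the 27 windows (22.2%) of the 18 tested clock genes that have one, or in 5 of those 18 genes.

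Rbm3, an RNA-binding protein that rises in the cold, was lower in both kinds of mice without passing. It was at 144, 163 and 130 TPM in enriched ethanol mice, against 180, 179 and 202 TPM in standard ethanol mice, with no overlap (log2 fold change -0.36, SE 0.09; limma adjusted p = 0.765). In saline mice its log2 fold change was -0.44. Cirbp, the other member of that family measured here, was at 72.1, 74.3 and 71.1 TPM in enriched ethanol mice, against 74.7, 67.1 and 89.5 TPM in standard ethanol mice.

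Among growth factors Ntf3 had the largest difference, and none of the 14 tested neurotrophin, Vegf and related genes passed (median 0.093). At an unadjusted limma p under 0.05, 2 were higher and 0 lower, against 2.91% and 2.66% of all genes. Vegfa, the growth factor of vessels, was at 42.1, 34.8 and 44.3 TPM in enriched ethanol mice, against 30.5, 30.2 and 30.9 TPM in standard ethanol mice, with no overlap and a log2 fold change of 0.39 (SE 0.16). Bdnf, the brain neurotrophin that running is known to raise, was at 25.4, 28.5 and 34.0 TPM in enriched ethanol mice, against 25.4, 27.2 and 21.6 TPM in standard ethanol mice. Its log2 fold change was 0.24 with a 95% interval of -0.06 to 0.53 (limma adjusted p = 0.918), and 0.19 in saline mice. Igf1 was at 3.75, 3.08 and 4.36 TPM in enriched ethanol mice, against 3.83, 4.79 and 4.38 TPM in standard ethanol mice.

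Neither immature neuron genes nor activity genes passed. The 23 tested genes of adult neurogenesis had a median log2 fold change of -0.098 in ethanol mice, with 8 above 0, and 0.126 in saline mice, with 15 above 0. Those in ethanol mice ran from -0.601 to 0.235. In ethanol mice 0 were higher and 2 lower at an unadjusted limma p under 0.05, against 2.91% and 2.66% of all genes. Dcx, the microtubule protein of migrating young neurons, was at 8.27, 8.39 and 7.96 TPM in enriched ethanol mice, against 9.85, 7.92 and 8.77 TPM in standard ethanol mice. Its log2 fold change was -0.10 in ethanol mice (95% interval -0.41 to 0.21) and 0.44 in saline mice. Calb2, the calretinin of young granule cells and some interneurons, was at 25.6, 26.2 and 37.7 TPM in enriched ethanol mice, against 43.7, 43.4 and 47.3 TPM in standard ethanol mice, and Dpysl5, which guides growing axons, had a log2 fold change of -0.40 (SE 0.16). Without enriched ethanol replicates 1 and 2 the list median was 0.0402, with 12 of 23 above 0. Calb2 then had a log2 fold change of -0.246, Dcx of -0.140 and Dpysl5 of -0.341. The 21 immediate-early genes, switched on by firing within minutes, had a median of 0.071 (limma, 0 higher and 0 lower at an unadjusted p under 0.05). Fos was at 30.2, 43.2 and 19.5 TPM in enriched ethanol mice, against 17.4, 41.7 and 44.8 TPM in standard ethanol mice, and Arc at 185, 233 and 102 TPM, against 82.0, 147 and 157 TPM. Their 95% intervals were wide, from -1.42 to 1.18 for Fos and from -0.47 to 1.28 for Arc.

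Markers of the principal neurons differed little. Dentate granule cell markers had a median log2 fold change of 0.127 over 13 genes in ethanol mice, with 8 above 0, and of -0.322 in saline mice, with 0 above 0. Lct, known mainly as the lactase of the gut, was at 21.6, 21.8 and 19.4 TPM in enriched ethanol mice, against 16.4, 14.3 and 11.6 TPM in standard ethanol mice. C1ql2, a secreted organiser of mossy fibre synapses, was at 55.2, 47.0 and 59.4 TPM in enriched ethanol mice, against 41.1, 39.8 and 41.3 TPM in standard ethanol mice. CA1 markers had a median of 0.119 over 10 genes and CA3 markers of -0.113 over 9, with Plagl1 the lowest CA3 marker. With libraries left out in turn these medians ran from 0.0239 to 0.185 and from -0.133 to -0.051. Rbfox3, the NeuN antigen of neurons, was at 123, 117 and 116 TPM in enriched ethanol mice, against 98.5, 103 and 105 TPM in standard ethanol mice. The 18 interneuron genes had a median of -0.048. In bulk tissue fewer cells of a type and less RNA per cell cannot be told apart.

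Neuropeptide genes went in different directions. Adcyap1, which encodes the peptide PACAP, was at 7.35, 7.17 and 7.09 TPM in enriched ethanol mice, against 9.97, 10.3 and 9.47 TPM in standard ethanol mice. In saline mice it was at 10.3, 10.01 and 13.8 TPM in enriched cages, against 8.53, 7.78 and 8.19 TPM in standard cages. The log2 fold changes were -0.44 (SE 0.12) and 0.44, with an unadjusted interaction p of 0.000283 that did not pass adjustment. Chgb, a granin of secretory granules, was at 531, 573 and 534 TPM in enriched ethanol mice, against 367, 485 and 429 TPM in standard ethanol mice. Cort, the interneuron peptide cortistatin, was at 16.7, 19.3 and 19.7 TPM in enriched ethanol mice, against 12.4, 16.0 and 13.4 TPM in standard ethanol mice. Of the 17 peptide genes tested, 10 lay above 0, and the median was 0.079.

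Lists of synapse and channel genes had medians near 0, while members ran to 0.504 for potassium channels and 0.453 for presynaptic genes. The medians were 0.049 over 15 AMPA and NMDA receptor genes, 0.147 over 7 metabotropic glutamate receptor genes, 0.013 over 14 GABA-A receptor genes, 0.008 over 24 postsynaptic density genes and 0.025 over 26 presynaptic genes. Of 26 potassium channel genes 20 lay above 0, with a median of 0.045. Kcnj3, a channel subunit that G proteins open, was at 111, 106 and 104 TPM in enriched ethanol mice, against 93.2, 93.5 and 94.5 TPM in standard ethanol mice. Kcna4, a fast-inactivating channel of axons, was at 44.9, 47.7 and 57.7 TPM in enriched ethanol mice, against 38.4, 38.1 and 29.3 TPM in standard ethanol mice. Gabrb2, a GABA-A receptor subunit, was at 135, 134 and 136 TPM in enriched ethanol mice, against 122, 117 and 128 TPM in standard ethanol mice. The groups did not overlap in these 3 genes, and none passed (limma adjusted p = 0.861 for each). All 3 enriched ethanol libraries lay above all 3 standard ethanol libraries in 4 of the 26 potassium channel genes and below them in 1. For the 14 GABA-A receptor genes these counts were 2 and 1. Over all genes the shares were 6.07% above and 5.97% below.

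**Figure D4:**
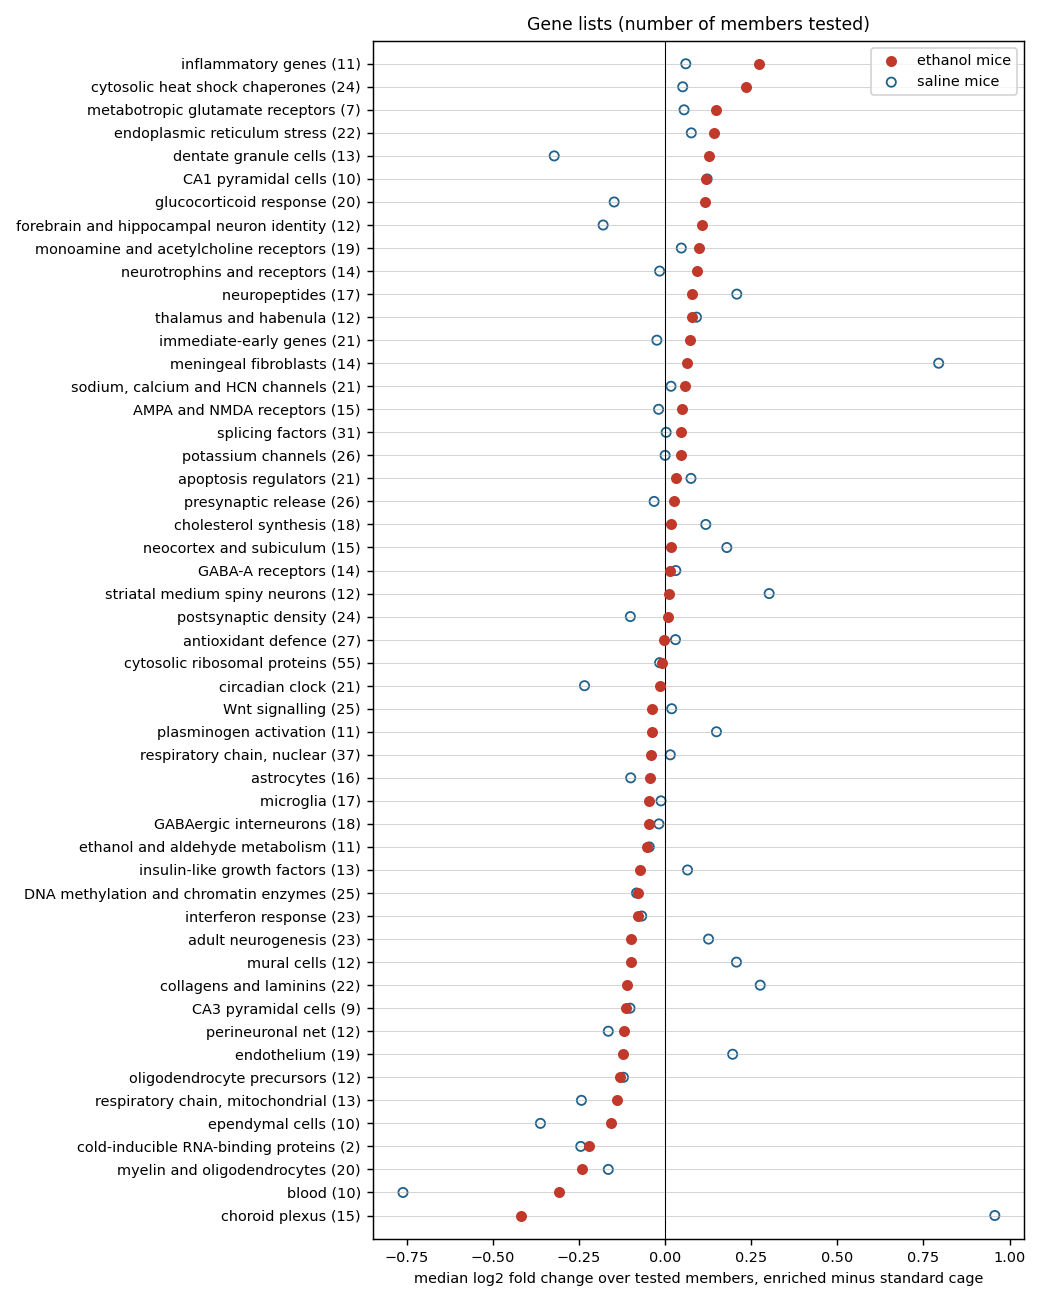
Median log2 fold change of enriched minus standard cages (x axis) over the tested members of each of the 51 gene lists, in ethanol mice (filled red) and saline mice (open blue), sorted by the value in ethanol mice. Inflammatory genes (0.273) and cytosolic chaperones (0.236) lie at the top, and myelin (-0.241), blood (-0.307) and choroid plexus genes (-0.418) at the bottom. Without standard ethanol replicate 1 the blood median was 0.318 and the choroid plexus median 0.114.

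Myelin genes had log2 fold changes mostly below 0, and the enriched ethanol libraries differed among themselves. Of the 20 tested, 18 had a log2 fold change below 0 in ethanol mice, with a median of -0.241, and 19 in saline mice, with a median of -0.165. None passed (limma in ethanol mice, 0 higher and 0 lower at an unadjusted p under 0.05, against 2.91% and 2.66% of all genes). Mog, a surface protein of myelin, was at 59.1, 66.1 and 98.6 TPM in enriched ethanol mice, against 98.7, 92.6 and 95.8 TPM in standard ethanol mice. Mbp, the main structural protein of the sheath, was at 1689.5, 1773 and 2361 TPM in enriched ethanol mice, against 2336, 2133 and 2166 TPM in standard ethanol mice. Enriched ethanol replicate 3 stood at the level of the standard ethanol mice in both, and with replicates 1 and 2 left out the list median was 0.05, with 16 of 20 above 0. The summed TPM of the 20 genes was 4625, 4927 and 6679 in enriched ethanol mice, against 6541, 6252 and 6220 in standard ethanol mice. The 12 oligodendrocyte precursor genes had a median of -0.131 in ethanol mice, with 3 above 0, and of -0.121 in saline mice, with 3 above 0. None passed (limma in ethanol mice, 0 higher and 2 lower at an unadjusted p under 0.05). Among them Enpp6, of newly forming oligodendrocytes, was at 7.36, 6.17 and 10.4 TPM in enriched ethanol mice, against 10.49, 10.6 and 10.98 TPM in standard ethanol mice. Gpr17, which marks cells about to mature, was at 21.8, 20.3 and 27.8 TPM in enriched ethanol mice, against 30.3, 32.4 and 28.5 TPM in standard ethanol mice. Without enriched ethanol replicates 1 and 2 the precursor median was 0.0945, with 8 of 12 above 0. Enpp6 then had a log2 fold change of -0.0328 and Gpr17 of -0.127.

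Astrocyte and microglia genes were close to 0, with medians of -0.043 over 16 and -0.047 over 17 genes. Gfap, the intermediate filament of astrocytes, was at 276, 251 and 242 TPM in enriched ethanol mice, against 252, 248 and 253 TPM in standard ethanol mice, a log2 fold change of 0.03 (95% interval -0.17 to 0.22), and of -0.48 in saline mice. Interferon response genes had a median of -0.080 over 23 genes, with 8 above and 15 below 0. At an unadjusted limma p under 0.05, 0 were higher and 1 lower, against 2.91% and 2.66% of all genes. Irf7, a transcription factor of that response, was at 1.67, 1.19 and 1.21 TPM in enriched ethanol mice, against 2.19, 2.45 and 2.36 TPM in standard ethanol mice. These values are near the limit of 1 TPM, and its exons overlap those of Phrf1 on the opposite strand.

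Vessel and matrix lists had medians below 0 in ethanol mice, and no member passed. Endothelial genes had a median log2 fold change of -0.122 over 19 genes and mural genes of -0.099 over 12, against 0.196 and 0.207 in saline mice. In ethanol mice 12 of the 19 endothelial and 9 of the 12 mural genes lay below 0. With libraries left out in turn the medians ran from -0.141 to -0.0314 and from -0.182 to -0.0268 in ethanol mice. Without enriched ethanol replicates 1 and 2 the endothelial median was 0.0114, with 12 of 19 above 0. The mural median was then -0.0632, with 4 of 12 above 0. Collagens and laminins had a median of -0.110, with 17 of 22 below 0 in ethanol mice, against 0.276 in saline mice. Without enriched ethanol replicates 1 and 2 it was -0.150, with 16 of 22 below 0. Lama2, a basement membrane laminin, was at 10.03, 10.1 and 10.1 TPM in enriched ethanol mice, against 14.1, 13.0 and 13.3 TPM in standard ethanol mice. Timp2, an inhibitor of matrix metalloproteases, was at 97.2, 104 and 104 TPM in enriched ethanol mice, against 132, 121 and 121 TPM in standard ethanol mice, a log2 fold change of -0.29 (SE 0.12), and of 0.43 in saline mice. Col3a1, a collagen of meningeal fibroblasts, was at 4.20, 2.19 and 3.97 TPM in enriched ethanol mice, against 8.87, 4.40 and 8.42 TPM in standard ethanol mice, and Dcn, a collagen-binding proteoglycan, had a log2 fold change of -0.53. The 14 meningeal genes as a list had a median of 0.063 in ethanol mice and of 0.794 in saline mice, and their summed TPM was 1910, 1550 and 1249 in enriched ethanol mice, against 891.7, 1225 and 1707 in standard ethanol mice. The part of meningeal tissue in the values of Col3a1 and Dcn was not tested.

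The choroid plexus list had the lowest median, -0.418, and it rested on standard ethanol replicate 1. Ttr, the thyroid hormone carrier of that tissue, was at 26.4, 31.4 and 32.3 TPM in enriched ethanol mice, against 385, 31.3 and 24.3 TPM in standard ethanol mice. Without that library the list median was 0.114 and 8 of 15 genes lay above 0. Markers of the striatum (0.012 over 12 genes), of the thalamus and habenula (0.078 over 12) and of neocortex and subiculum (0.016 over 15) had medians near 0.

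**Figure D5:**
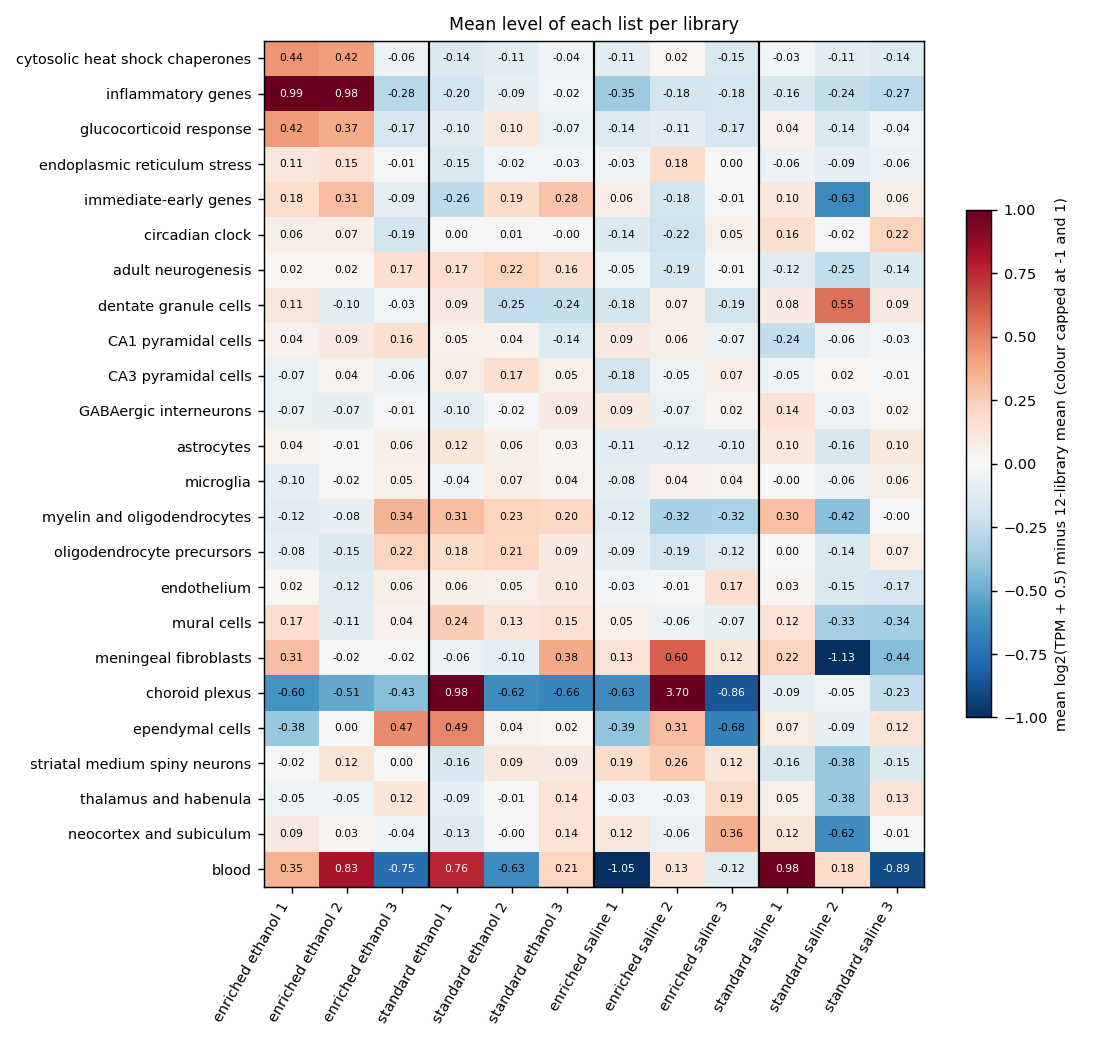
Mean log2(TPM + 0.5) of 24 gene lists (y axis) in each library (x axis), as the difference from the 12-library mean, with the colour capped at -1 and 1. Enriched ethanol replicates 1 and 2 are high for inflammatory (0.99 and 0.98), chaperone (0.44 and 0.42) and glucocorticoid response genes (0.42 and 0.37), replicate 3 is high for myelin genes (0.34), standard ethanol replicate 1 is high for choroid plexus genes (0.98), and enriched saline replicate 2 is higher still (3.70, beyond the colour range).

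The remaining lists covered energy, metabolism, gene control and death. Mitochondrially encoded respiratory genes had a median of -0.139 over 13 genes in ethanol mice and of -0.243 in saline mice. Without standard ethanol replicate 1 it was -0.0069 in ethanol mice, with 6 above and 7 below 0. Of these, mt-Co3, a cytochrome oxidase subunit, was at 8676, 8314 and 9583 TPM in enriched ethanol mice, against 11986, 11489.9 and 10073 TPM in standard ethanol mice. Nuclear respiratory genes (-0.042 over 37), cytosolic ribosomal proteins (-0.008 over 55), antioxidant genes (-0.004 over 27) and cholesterol synthesis genes (0.017 over 18) had medians close to 0. Acss1, which turns acetate into acetyl-CoA in mitochondria, was at 18.9, 16.5 and 19.4 TPM in enriched ethanol mice, against 22.1, 23.8 and 22.4 TPM in standard ethanol mice, the largest difference among the 11 tested genes of ethanol and aldehyde metabolism. Of 25 DNA methylation and chromatin enzymes 19 lay below 0, with a median of -0.078, against 16 below 0 with a median of -0.083 in saline mice. Without standard ethanol replicate 1 that median was -0.0044 in ethanol mice, with 12 above and 13 below 0. Snrpa, a protein of the U1 splicing particle, was at 59.9, 57.5 and 51.1 TPM in enriched ethanol mice, against 44.7, 51.2 and 38.4 TPM in standard ethanol mice. Bbc3, the cell death activator PUMA, was at 8.04, 10.8 and 9.29 TPM in enriched ethanol mice, against 7.41, 4.996 and 7.36 TPM in standard ethanol mice. None of the members of the 51 lists passed in ethanol mice in either direction.

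Whether housing acted differently after ethanol than after saline was tested as an interaction over all genes. limma called 2 of 14947 genes (0.0134%), ENSMUSG00000118641 and the pseudogene Gm44922, 1 with a positive and 1 with a negative interaction (0.00669% each), and 1107 genes (7.41%) had an unadjusted p under 0.05. Both are listed at 0 in 3 of the 4 groups, so each met the limit on low values only through the group where it is high. With a pseudocount of 0.1 or a mean of at least 5, limma called 0 genes for the interaction. ENSMUSG00000118641 was not called for the interaction after quantile normalization, with the replicate block, with a pseudocount of 0.1, or in 10 of the 12 fits that left out 1 library. Adcyap1, Map7 and Gfap, whose log2 fold changes in ethanol and saline mice are given above, were not called, so a difference between ethanol and saline mice was not shown for them.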

How the data were processed

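RNA of 12 hippocampi was sequenced from stranded, ribosome-depleted total RNA libraries, per the labels' protocols. The submitters' processing notes name CASAVA, kallisto, sleuth and the build mm10. The sources used here do not give the annotation release. The deposited values are named TPM by the authors, but each library carries a further factor, so they were treated as a deposited signal proportional to TPM. The design had assumed plain TPM, and the test is the same. Each of the 12 columns carries a sample's name, and 0 were left unmatched. Symbols and positions are from GENCODE M21 (GRCm38), with 35879 identifiers matched.

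limma 3.58.1 (R 4.3.3) fitted 4 group means to log2(TPM + 0.5) of all 12 libraries, with a mean-variance trend, 8 residual and 3.82 prior degrees of freedom, two-sided tests and a threshold of 0.05. Adding 0.5 understates the change of low genes. The script was tested on simulated data. Genes named are the called ones, the 10 smallest p in each direction among annotated symbols (predicted genes left out), the 2 smallest p in each direction of each list, and 12 given throughout, while others in the text were chosen after their values were seen. The genes, lists and comparison were chosen with earlier results of these data known. The 24 alternatives changed the pseudocount, the limit on low values, the scaling, the model or the libraries.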

Additional observations from a re-analysis of the deposited data

Results flagged for a closer look

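Both genes called for the interaction are listed at 0 in 3 of the 4 groups. Each call rests on the 1 group where the gene is high, through which it also met the limit on low values. The calls therefore do not show that housing acted differently after ethanol. ENSMUSG00000118641 had a fitted interaction of -3.79 on the log2(TPM + 0.5) scale (limma adjusted p = 0.0418), a size that depends on the pseudocount because the gene is listed at 0 in the 3 enriched ethanol and all 6 saline libraries. This call was lost in 10 of the 12 fits that left out 1 library, remaining without enriched ethanol replicate 3 and without standard saline replicate 2. It was also lost after quantile normalization, with the replicate block and with a pseudocount of 0.1. Gm44922 had a fitted interaction of 4.16, and it is listed at 0 in all libraries but the 3 of standard saline mice, where it was at 8.47, 8.41 and 8.35 TPM. That size depends on the pseudocount too, and the gene met the limit on low values only through those 3 libraries. Its call was kept in all 12 fits that left out 1 library, all of which tested the same genes. With a pseudocount of 0.1 or a mean of at least 5 both calls were lost, since 0 genes were called there.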

How the results depend on the processing

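The count of genes called for housing in ethanol mice, 1 as reported, was 0 in limma with a pseudocount of 0.1 or a mean of at least 5 (832 and 658 at an unadjusted p under 0.05), 2 with no filter and 4 with only the 6 ethanol libraries fitted. It ran from 1 to 21 when libraries were left out in turn, with 21 without enriched ethanol replicate 3 and 2 without enriched ethanol replicate 2, standard ethanol replicate 2 or enriched saline replicate 1. The interaction count, 2 as reported, was 0 under the same pseudocount and limit (1105 and 889 unadjusted), 4 with no filter and 1 after quantile normalization. It ran from 1 to 12, with 12 without enriched ethanol replicate 3, 7 without standard saline replicate 2, and 1 without enriched ethanol replicate 1, standard ethanol replicates 2 or 3, enriched saline replicates 2 or 3 or standard saline replicate 1. With enriched ethanol replicates 1 and 2 both left out, an alternative chosen after seeing the data, both counts were 0 (448 and 532 unadjusted). With the replicate number as a block the counts were 1 and 2, and the 2 interaction calls were then Gm44922 and Kcng2, without ENSMUSG00000118641. Same-numbered enriched and standard ethanol libraries had correlations of 0.02, -0.001 and -0.014, not every library was closest to its own number, and the numbers do not pair the mice.

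With enriched ethanol replicates 1 and 2 left out, log2 fold changes changed sign to -0.22 for Ch25h, -0.18 for Hspa1b, -0.29 for Cxcl1, -0.21 for Icam1, -0.26 for Hspa1a, -0.0471 for P4ha1, -0.0731 for Vcam1, -0.0331 for Errfi1, -0.33 for Sgk1, -0.18 for Dnajb1, -0.73 for Lcn2, -0.27 for Arc, -0.94 for S100a9, -0.11 for Nr4a1 and -0.0539 for Gfap, and to 0.0837 for Fabp7, 0.013 for Igf1 and 0.10 for Mbp. ENSMUSG00000118641 then had an adjusted p of 0.191, and of 0.286 with a pseudocount of 0.1. Array weights turned Per1 to 0.0211 and Hspa2 to 0.0012. Leaving out libraries in turn gave ranges that cross 0 for Cirbp (-0.17 to 0.034), Ttr (-1.86 to 0.11), Nr4a1 (-0.14 to 0.35), Gfap (-0.026 to 0.0692), Npas4 (-0.53 to 0.25), Fos (-0.55 to 0.17), Egr1 (-0.20 to 0.12), Per1 (-0.21 to 0.28) and Hspa2 (-0.0477 to 0.028). The cause was not tested. Of the gene values under alternatives, 2311 kept direction and side of the threshold, and 37 changed sign. With the sign kept, 15 gained the call and 2 lost it. As only 1 gene was called as reported, keeping the side of the threshold says little about stability. Depth is unknown, and with 3 libraries a group the test detects only differences that are large against their spread.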
